A study of Rattus norvegicus with 6 samples.

Results

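Strandless loci are stretches of the rat genome at which reads piled up in the corneal epithelium without a match to an annotated transcript and without a strand. They were taken as the rows with no transcript type, a dot in place of a strand and a mean of at least 0.5 FPKM (fragments scaled to the length of a locus and to the size of the library) over the 6 libraries. Of 61453 loci in the tables, 19441 met this rule, and a further 538 strandless loci fell below the level. All 6 libraries came from scraped corneal epithelium of male Brown Norway rats. The 3 diabetic libraries came from rats given a single intraperitoneal injection of 50 mg/kg streptozotocin, a toxin of the insulin-producing beta cell, with blood glucose above 16.67 mmol/l, and the 3 normal libraries from rats given citrate buffer. Tissue was taken at week 16. Nothing in the labels says how the corneas of a group were divided among its 3 libraries, so p-values measure only the spread between these libraries, which may be technical. Fewer cells of a type and less RNA per cell cannot be told apart in such bulk samples. Comparisons were made with 9186 stranded loci that also lack a transcript type and pass the same level, and with all 42551 loci that pass it.

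An assembler orients a transcript from the splice sites that its reads cross, or from a library kit that keeps the strand. Unspliced RNA read without strand information therefore carries no direction. Such RNA is known to come from introns of precursor mRNA, from transcription that runs past the end of a gene, from enhancers and from the long primary transcripts out of which microRNAs (miRNAs) are cut.

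The strandless loci lie in rn6, of which no genome was used here, so their own sequences are not printed. Primary miRNA transcripts are 1 class of RNA to which loci can be tied by position: 55 strandless loci lay within 5 kb of, or over, an annotated miRNA with a Mir symbol, 22 of them with a mean of at least 100 counts, and these were chosen for description after their values were seen. The mature miRNAs of 6 of these places are given from RefSeq (GRCr8), because the neighbouring loci are described below. The seed, bases 2 to 8, is in capitals, and miR-221-3p and miR-222-3p share theirs. Of 46 such miRNA symbols 45 were found in RefSeq.
let-7c-5p: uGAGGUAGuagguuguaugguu
miR-21-5p: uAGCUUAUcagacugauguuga
miR-34a-5p: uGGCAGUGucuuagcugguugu
miR-96-5p: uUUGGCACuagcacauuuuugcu
miR-146a-5p: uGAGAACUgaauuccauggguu
miR-221-3p: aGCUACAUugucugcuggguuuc
miR-222-3p: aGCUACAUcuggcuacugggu

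Library totals ran from 62288901 to 87040253 counts. The markers of corneal epithelium, with 5 of 7 found, summed to between 13245 and 15304 FPKM in each library. All 8 lens markers were found, and their sum ranged from 106 to 324 FPKM in the normal and from 7.87 to 1112 FPKM in the diabetic libraries. The 3 leukocyte markers found summed to between 4.99 and 9.62 FPKM in the normal and between 3.56 and 4.12 FPKM in the diabetic libraries. The stromal list, with 6 of 7 found, summed to between 826 and 1117 FPKM, the conjunctival list, with 2 of 4 found, to between 497 and 1388 FPKM, and the corneal endothelial list to between 45.4 and 83.0 FPKM. The muscle list reached at most 0.388 FPKM and the blood list at most 1.58 FPKM in a library, and Hbb, a defining blood marker, was listed at 0. The part of these other tissues in the strandless loci was not tested.

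Strandless loci were short and weak. Their length ranged from 200 to 52600 bases with a median of 474 bases, and 76.3% were under 1 kb. Stranded loci without a type had a median length of 3030 bases. The median level was 1.30 FPKM against 2.30 FPKM for the stranded loci, and 86.9% of the strandless loci stayed under 2 FPKM. Only 67 reached 10 FPKM, and the highest level was 56.4 FPKM. A median strandless locus held 56.3 counts per library, where a median stranded locus held 371. In sum the strandless loci covered 18.4 Mb.

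Strandless loci that could be judged were scaled to their full span, as loci without splicing are. The transcript length that a locus's counts and FPKM imply was compared with its genomic span for the 15815 strandless loci with at least 50 counts in 1 or more libraries. Scaled to a median of 1 over strandless loci within each library, the ratio lay between 0.996 and 1.02 for all of them. Among 9049 stranded loci with as many counts 58.0% lay within 2% of the span. The ratio gives the length at which a locus was scaled and does not look at its reads. An assembler that orients loci by splice sites leaves only unspliced ones without a strand, so the rule may have fixed this outcome.

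The highest levels were found at MSTRG.288 (chrX:23222255-23222797), 9.21 kb downstream of Apex2, which encodes a DNA repair endonuclease. It held 56.5, 52.5 and 64.4 FPKM in normal 1, 2 and 3 and 57.9, 49.5 and 57.8 FPKM in diabetic 1, 2 and 3, and the groups overlapped. The second was MSTRG.35771 (chr5:138042658-138043130) with 53.7 to 54.9 FPKM in the normal and 48.4 to 60.5 FPKM in the diabetic libraries. These were followed by MSTRG.8011, MSTRG.39328, MSTRG.46151, MSTRG.37473, MSTRG.34694, MSTRG.5696, MSTRG.37188 and MSTRG.24782, at means from 46.5 down to 27.0 FPKM. All 10 lay outside protein-coding rows, and none passed the test between the groups.

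By counts the order was led by other loci. MSTRG.24782 (chr2:161573501-161578435) took the largest share, 0.0152% of all counts on average, with 7596 to 16226 counts in the normal and 7098 to 17814 in the diabetic libraries. The longest locus, MSTRG.41174 (chr7:113618128-113670727, 11.1 kb downstream of Trappc9, a component of a vesicle-tethering complex), took 0.0118%. It held 1.69 to 1.71 FPKM in the normal libraries and 1.68, 2.63 and 2.42 FPKM in diabetic 1, 2 and 3. MSTRG.21062, within Chsy3, a chondroitin sulfate synthase, followed at 9.70 ± 0.228 FPKM in the normal libraries and 7.25 ± 1.44 FPKM in the diabetic ones (SD, n = 3 each). The groups did not overlap there, but the difference did not pass (log2 fold change -0.37, SE 0.14, adjusted p = 0.953, limma). MSTRG.6778, 24.1 kb downstream of Vti1a, and MSTRG.39347 on chromosome 7 completed the 5 largest shares. MSTRG.15537 (chr14:85637856-85676535) was the remaining member of the 3 longest, with 6171 to 7312 counts in the normal and 3814 to 6381 in the diabetic libraries. In FPKM the groups did not overlap, at 1.83 to 2.03 in the normal and 1.39 to 1.67 in the diabetic libraries. The difference did not pass (adjusted p = 0.953, limma). The shortest were MSTRG.11758 within Adap1, MSTRG.11914 within Alkbh4 and MSTRG.12531, each 200 bases long.

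Strandless loci were either wholly inside a protein-coding row or wholly outside. Of the 19441, 7603 (39.1%) lay inside such a row and none overlapped one in part. Of the stranded loci without a type 63.2% overlapped a protein-coding row, 519 of them only in part. Only 2.03% of the strandless loci overlapped a stranded locus without a type, and 48.4% carried the name of a gene in the tables.

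Outside the genes, strandless loci were denser past the ends of genes than ahead of their starts up to 10 kb, and sparser from there to 100 kb. Of 1231 within 1 kb of the nearest protein-coding row, 863 (70.1%) lay downstream of it and 368 upstream. Within 10 kb, 2908 of 4616 (63.0%) lay downstream. At 10 to 20 kb there were 51.6 per kb of distance downstream against 69.3 upstream, and at 20 to 50 kb 21.0 against 33.3. Beyond 10 kb stood 7222 loci, and 3078 of them were further than 100 kb from a protein-coding row. The stranded loci without splicing showed a similar split, 72.0% downstream within 1 kb and 63.4% within 10 kb, and all stranded loci without a type 62.8% and 56.6%. No test was run on these positions.

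**Figure D1:**
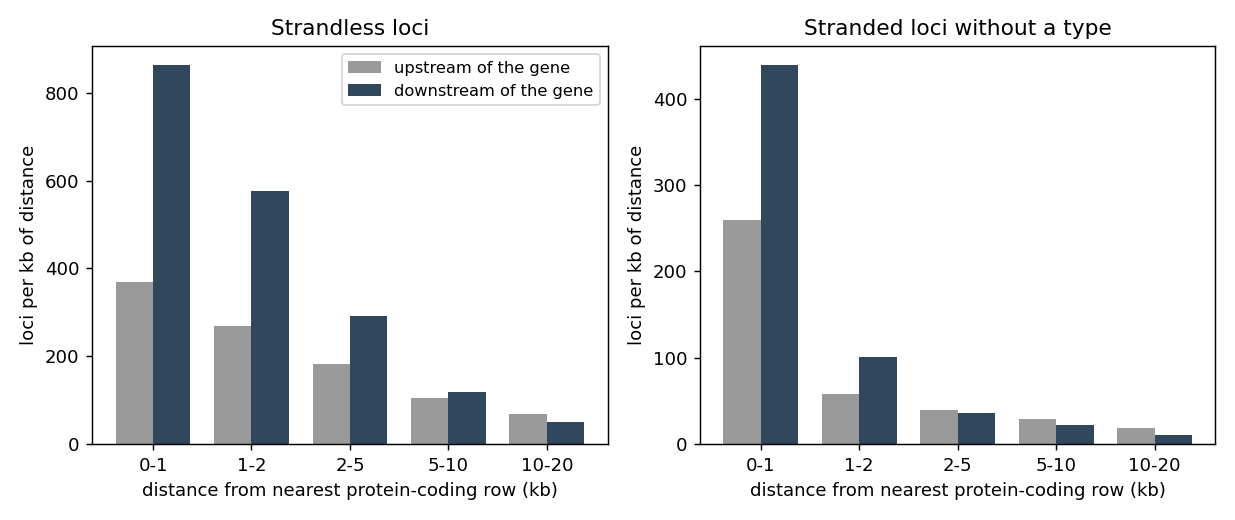
Number of loci per kb of distance (y axis) against the distance from the nearest protein-coding row in kb (x axis), for loci upstream and downstream of the gene; strandless loci on the left, stranded loci without a type on the right. Strandless loci fell from 863 per kb in the first kb downstream to 51.6 per kb at 10 to 20 kb, and from 368 to 69.3 per kb upstream.

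The strandless loci inside genes were gathered in few, long genes. They lay in 2514 of 20864 protein-coding rows (12.05%), whose median length was 54.3 kb against 14.3 kb for all protein-coding rows. The latter are not matched for level, since only 389 of the 2514 hosts fell below 0.5 FPKM. For the 11570 protein-coding rows that reached 0.5 FPKM the median length was 22255.5 bases, still below that of the hosts. A single strandless locus was found in 1243 of these hosts and 5 or more in 411. In 576 hosts (22.9%) the summed counts of the strandless loci exceeded the counts of the host row itself. Across hosts the number of strandless loci went with host length (Spearman rho 0.38, n = 2514), and across loci their level went with that of the host (Spearman rho 0.48, n = 7603). Loci of 1 host share that host.

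Nlgn1 (neuroligin 1, a postsynaptic adhesion protein) held the most, 66 strandless loci in a row of 736 kb. These loci held 6366 counts in an average library, 12.2 times the 524 counts of the Nlgn1 row. St6galnac3, a sialyltransferase, held 59 loci with 24.3 times the counts of its own row. Chrm3, a muscarinic acetylcholine receptor, held 53 (13.1 times) and Rims2, a protein of the presynaptic release site, held 48 (4.72 times).

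Gene families differed in how many of their rows held strandless loci, beside 12.05% of all protein-coding rows, and these shares were not tested. That 12.05% is matched neither for level nor for length of the rows. Hosts had a median length of 54.3 kb, against 14.3 kb for all protein-coding rows, and the lengths of the families were not compared. Of the 20864 rows 11570 reached 0.5 FPKM, while only 389 of the 2514 hosts fell below it. Of 33 protein-coding keratin rows only Krt222 held a strandless locus (3.03%), and it held 1, while 14 of the 33 reached the level of 0.5 FPKM. None of 73 rows of cytosolic ribosomal proteins and none of 6 rows of corneal crystallins, abundant soluble proteins of the cornea, held any. Of 73 mitochondrial ribosomal protein rows 12 (16.4%) held 21 strandless loci, 9 of which lay in Mrps28. Of 91 oxidative phosphorylation rows 4 (4.40%) held 21, with 16 in Atp5f1c. Of 39 collagen rows 6 (15.4%) held 14, with 7 in Col24a1. The level of 0.5 FPKM was reached by 71 rows in each ribosomal list, 84 of oxidative phosphorylation, 27 of collagens and 6 of crystallins.

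The share of library counts in strandless loci did not separate the groups. It was 3.59, 3.61 and 3.82% in normal 1, 2 and 3 and 3.52, 3.42 and 3.81% in diabetic 1, 2 and 3. The means were 3.67 ± 0.125% and 3.58 ± 0.201% (SD, n = 3 each), and the difference of -0.0903 percentage points was within the spread between libraries (exact permutation test, two-sided, p = 0.5, where 3 against 3 allows no p below 0.1). Of the mean share in normal libraries 1.39% of counts lay inside protein-coding rows, 0.968% outside but within 10 kb, and 1.31% further away. The stranded loci without a type took 14.7 to 16.0% of counts.

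**Figure D2:**
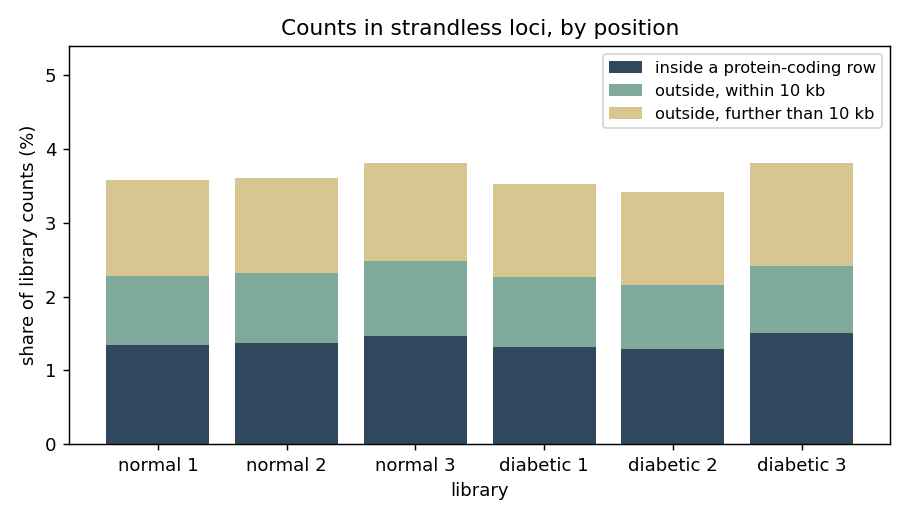
Share of all counts of a library (y axis, %) in strandless loci, for the 3 normal and 3 diabetic libraries (x axis), stacked by position relative to protein-coding rows. The libraries run from 3.42% to 3.82% in total, and the normal and diabetic bars overlap.

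Agreement between libraries was lower for strandless loci as a whole, and this turned around among loci of like counts. For each library the absolute deviation of a locus from the mean of the other libraries of its group was taken on the normalized log2(FPKM + 1) scale. Its median was 0.29 ± 0.02 over the strandless and 0.21 ± 0.03 over the stranded loci without a type (mean ± SD over 6 libraries). The difference of 0.08 held in 6 of 6 libraries (exact sign-flip permutation test, two-sided, p = 0.031, the smallest that 6 libraries allow). Each library also enters the values of the others of its group, so the 6 differences are not independent. The p-values for these deviations may thus be too small. Among loci with a mean count of 100 to 300 the order was the reverse, 0.21 ± 0.02 for strandless and 0.24 ± 0.02 for stranded loci, with strandless loci lower in all 6 libraries (p = 0.031, same exact permutation test). The sign was also negative in the other 4 classes of mean count, with p = 0.031 at 30 to 100 and at 300 to 1000 counts and p = 0.09375 under 30 and 0.0625 at 1000 or more (exact permutation tests). On the scale of log2(CPM + 1), CPM being counts scaled to library size alone, the overall difference was -0.01 (p = 0.125, exact permutation test). With a pseudocount of 0.1 in place of 1 on the FPKM scale it was 0.20. Loci of like counts were not matched for FPKM, and the classes were compared only with a pseudocount of 1.

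**Figure D3:**
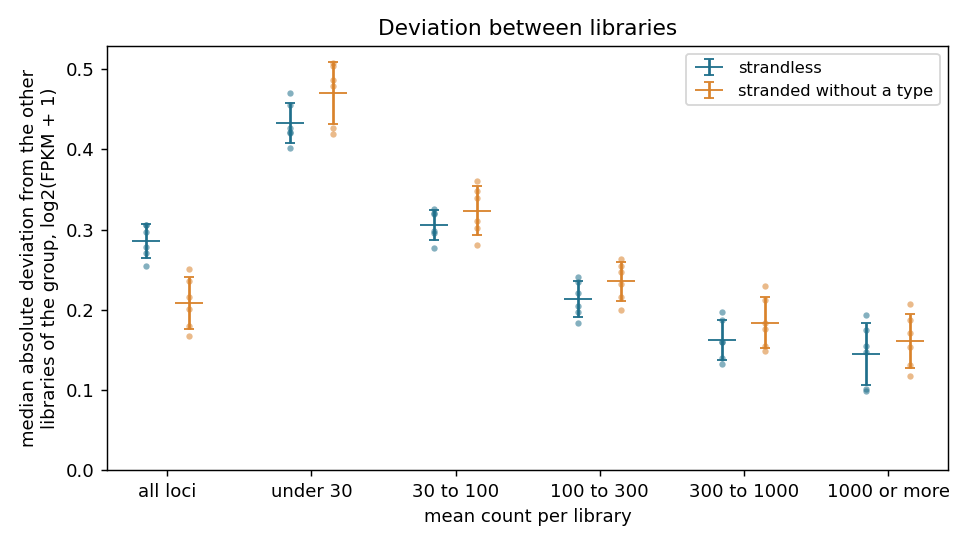
Median absolute deviation of a library from the others of its group (y axis, log2(FPKM + 1)) for strandless and stranded loci, over all loci and by class of mean count (x axis). Points are the 6 libraries and bars the mean ± SD. Over all loci the strandless values are higher (0.29 against 0.21), and within each class their mean is lower.

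Correlation between library pairs gave the same order over all loci. Pearson's r of log2(FPKM + 1) within groups was 0.461 to 0.539 over strandless, 0.774 to 0.836 over stranded and 0.949 to 0.972 over protein-coding loci. Pairs between groups gave 0.413 to 0.572 for the strandless loci, a range that takes in the pairs within groups. These values are across loci, which share library and depth, and the strandless levels also span a narrower range (interquartile range 0.997 to 1.65 FPKM, against 1.60 to 3.67 FPKM). Counts above 0 in all 6 libraries were found at 91.1% of strandless and 95.8% of stranded loci. The share of loci at 0 was 2.18 ± 0.384% per library for strandless and 1.46 ± 0.114% for stranded loci, higher in 6 of 6 libraries (p = 0.031, exact sign-flip permutation test). Strandless loci also held fewer counts (median 56.3 against 371), and shares at 0 were not compared among loci of like counts.

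Some strandless loci dropped out of a single library. At 40 loci 1 library held under a twentieth of the median of the others while each of the others held at least 100 counts, and these were picked by that gap. MSTRG.23490 (chr2:39517396-39521584, 43.7 kb downstream of Ercc8, a factor of transcription-coupled DNA repair) held 0 counts in normal 1 and 2461, 5079, 4218, 1789 and 4275 in the other libraries. Its neighbour MSTRG.23491 was also at 0 in normal 1 and held 1051 to 2524 elsewhere. MSTRG.22879, a locus of 14101 bases within Slc35f3, was at 0 in diabetic 1 and held 478 to 2046 in the others. In the opposite direction 19 loci held at least 20 counts in 1 library and 0 in the other 5, and 12 of them were present in normal 1 alone, led by MSTRG.11351 with 987 counts. Those 19 are 0.0977% of the strandless loci, beside 30 stranded loci (0.327%). With 0 counts in 1 library and at least 20 in each of the others there were 177 strandless (0.910%) and 93 stranded loci (1.01%).

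Between diabetic and normal libraries, the strandless loci as a class did not shift. Their median log2 fold change was -0.0043, beside -0.0049 over all loci tested, and 49.4% were positive, beside 49.0%. At an unadjusted p under 0.05 (limma) stood 1113 strandless loci (5.73%), 571 higher and 542 lower in diabetic libraries. The share over all loci tested was 4.8%, with 2.44% higher and 2.35% lower. The groups did not overlap in FPKM at 1947 strandless loci (10.01%), 839 with diabetic libraries higher and 1108 with diabetic libraries lower. Over all loci tested the groups did not overlap at 9.66%, with 3.94% higher and 5.72% lower.

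A single strandless locus passed an adjusted p under 0.05 with a fold over 1.2 (limma), of 11 among all loci, which is 0.0259% of those tested (0.0188% higher and 0.00705% lower). MSTRG.28232 (chr3:15773895-15774139, 245 bases) carries the name of AC131483, a pseudogene that ends just before it, and lies 14.6 kb upstream of the olfactory receptor gene Olr397. It held 54, 55 and 34 counts in normal 1, 2 and 3 and 339, 231 and 275 in diabetic 1, 2 and 3. All 3 diabetic libraries stood above all 3 normal ones. Its level was 2.14 ± 0.607 FPKM in the normal and 14.1 ± 1.02 FPKM in the diabetic group (SD, n = 3 each), a log2 fold change of 2.31 (SE 0.17, adjusted p = 0.0170, limma). The pseudogene beside it held 1450 to 1716 counts in the normal and 1245 to 2146 in the diabetic libraries (log2 fold change 0.11, SE 0.11, adjusted p = 0.962, limma). The call of MSTRG.28232 was lost without any 1 of the diabetic libraries and without normal 1, and edgeR gave an adjusted p of 0.117. DESeq2 passed this locus (adjusted p = 1.26e-12).

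Counts-based tests named further strandless loci, and DESeq2 also named MSTRG.28232. edgeR passed 1, MSTRG.40574, where it called 0.0141% of all loci (0.0094% higher and 0.0047% lower). DESeq2 passed 33 strandless loci (0.170%), 20 higher and 13 lower in diabetic libraries, where it called 0.233% of all loci (0.143% higher and 0.0893% lower). At 31 of the 33 the groups did not overlap, beside 9.66% of all loci tested, and all 33 had the same sign in limma. The 33 were picked by DESeq2 from the same libraries, so neither count is independent support. In simulated data limma found 0 of 50 loci without a type changed 4-fold, edgeR 15 and DESeq2 24, with 0, 1 and 13 false calls among 28627 loci.

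At 9 strandless loci 1 group was at 0 counts while every library of the other held at least 20 (0.0463%, beside 0.0376% of all loci tested). These 9 reached the level of 0.5 FPKM only through the group where they were high. Their fold floors and p-values are thus not independent of that filter. MSTRG.40574 (chr7:65016001-65017646), 7.18 kb downstream of Llph, held 0 counts in the 3 normal libraries and 326, 296 and 248 in diabetic 1, 2 and 3. It was at least 321-fold higher in diabetic libraries, with 3 counts over the group as the floor (adjusted p = 0.0273, edgeR; 0.171, limma). Llph itself held 98 to 237 counts in the normal and 130 to 208 in the diabetic libraries. MSTRG.12011 (chr12:25279642-25280436) lies within Gtf2ird1, a transcription factor gene, and held 0 counts in the normal libraries and 154, 134 and 126 in diabetic 1, 2 and 3. It was at least 153-fold higher (adjusted p = 0.168, limma; 0.0770, edgeR), while the Gtf2ird1 row held 2035 to 2212 and 1633 to 2521 counts. DESeq2 passed MSTRG.40574 (adjusted p = 6.74e-15) and MSTRG.12011 (adjusted p = 3.21e-11). The others named by rule were MSTRG.25865 within Plppr5, at least 47.3-fold higher in diabetic libraries, and MSTRG.31757 within RGD1306271, at least 37.6-fold lower. They passed in DESeq2 as well (adjusted p = 6.73e-05 and 0.000414).

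Among the loci at 0 counts in 1 group were 3 neighbours on chromosome 3. MSTRG.29122, MSTRG.29123 and MSTRG.29124 lie between 97118569 and 97126886, 566 to 574 kb past the nearest protein-coding row. Together they held 99, 180 and 264 counts in normal 1, 2 and 3 and 0 in every diabetic library, at least 63.8-fold, 35.2-fold and 64.4-fold lower in diabetic libraries. DESeq2 passed the 3 loci (adjusted p = 5.61e-06, 0.000543 and 2.90e-06), and none passed in limma. The next 9 strandless loci on the same side, from 97144195 to 97199437, were not at 0. They summed to 6.37, 11.5 and 24.9 CPM in normal 1, 2 and 3 and to 16.9, 24.6 and 64.6 in diabetic 1, 2 and 3, and all 9 log2 fold changes were positive (0.49 to 0.59), none at an unadjusted p under 0.05 (limma).

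The remaining loci with the smallest p-values did not pass in limma. Besides MSTRG.28232, MSTRG.12011, MSTRG.40574 and MSTRG.29124, the 10 smallest included MSTRG.26905 and MSTRG.26906 beside Fkbp5 (below). MSTRG.32467 (chr4:118432875-118433262), 16.6 kb downstream of Mxd1, held 191, 114 and 217 counts in normal and 13, 42 and 22 in diabetic 1, 2 and 3 (log2 fold change -1.68, SE 0.28, adjusted p = 0.793, limma). DESeq2 passed MSTRG.32467 (adjusted p = 0.0113). Mxd1, a repressor in the MYC network, held 56887 to 73119 and 49495 to 66999 counts. MSTRG.19796 within Chrm3 held 11, 2 and 22 against 86, 53 and 42 counts. MSTRG.23126 within Atg10, an autophagy enzyme, held 83, 80 and 81 against 26, 25 and 7, and MSTRG.32850 held 14, 20 and 18 against 47, 33 and 41. At all of these the groups did not overlap. MSTRG.19796, MSTRG.23126 and MSTRG.32850 did not pass in DESeq2.

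Strandless loci around Fkbp5 lay on the same side of 0. Fkbp5 encodes a co-chaperone of steroid receptors. The 8 strandless loci within 75 kb of its row (chr20:7976713-8042600, minus strand) were chosen after their values were seen, since MSTRG.26905 and MSTRG.26906 were among the 10 smallest p-values. MSTRG.26905 (chr20:8068116-8068394), 25.5 kb upstream, held 8, 7 and 5 counts in normal and 48, 44 and 49 in diabetic 1, 2 and 3 (log2 fold change 1.33, SE 0.19, adjusted p = 0.317, limma; adjusted p = 0.00769, DESeq2). MSTRG.26906, 28.9 kb upstream, held 0, 4 and 8 against 37, 37 and 38 counts. In the normal libraries MSTRG.26905 and MSTRG.26906 stood at 0.240 and 0.151 FPKM. Both thus reached the level of 0.5 FPKM only through the diabetic libraries. MSTRG.26914, 389 bases downstream, held 103, 160 and 123 against 231, 193 and 304.

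All 8 loci had positive log2 fold changes, from 0.30 to 1.33 with a median of 0.83. At 6 of them the diabetic libraries stood above all normal ones, beside 3.94% of all loci tested. An unadjusted p under 0.05 (limma) was found at 6, beside 2.44% of all loci higher at that level. The loci that led to this choice are among the 8, and neighbouring loci moved together (below). Neither count is thus one of separate observations. Their counts summed to 2.58, 4.93 and 2.93 CPM in normal and 7.12, 7.95 and 11.8 in diabetic 1, 2 and 3. The Fkbp5 row itself held 7.14, 6.87 and 6.25 FPKM against 9.61, 8.79 and 13.7 FPKM (log2 fold change 0.59, SE 0.17, adjusted p = 0.953, limma), and its groups did not overlap. Of the 8 loci, 5 lie nearer to Armc12 than to Fkbp5.

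Another such group lay in Zbtb16, which encodes a zinc finger repressor. Its row (chr8:52983386-53146953) contains 7 strandless loci, also chosen after their values were seen, and all 7 were positive (log2 fold change 0.49 to 1.13, median 0.87). Together they held 5.32, 9.41 and 3.87 CPM in normal 1, 2 and 3 and 11.0, 23.8 and 43.2 in diabetic 1, 2 and 3, so the groups did not overlap but the diabetic libraries spread widely. MSTRG.42854 held 50, 154 and 62 counts in normal and 203, 412 and 632 in diabetic libraries (log2 fold change 1.10, SE 0.33, adjusted p = 0.953, limma, and adjusted p = 0.00525, DESeq2). It stood at 0.365 FPKM in the normal libraries and reached the level of 0.5 FPKM only through the diabetic ones. The Zbtb16 row held 1.02 to 2.96 FPKM in the normal and 2.15 to 3.10 FPKM in the diabetic libraries, and its groups overlapped.

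**Figure D4:**
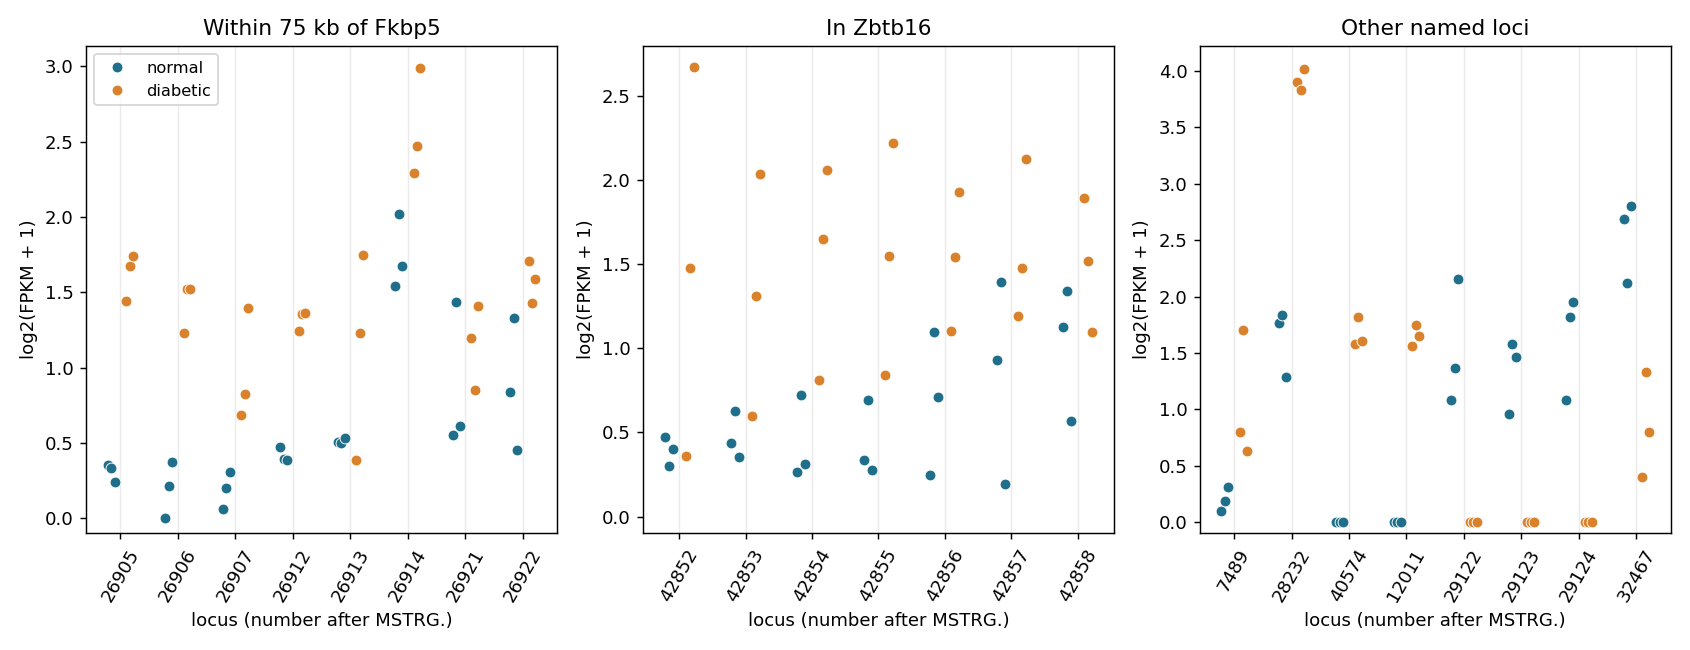
Level of named strandless loci in each library as log2(FPKM + 1) (y axis), by locus (x axis, the number after MSTRG.), for loci within 75 kb of Fkbp5, loci in Zbtb16 and other named loci. Each point is a library, 3 normal and 3 diabetic. The groups are apart at 6 of 8 loci beside Fkbp5 and at 3 of 7 in Zbtb16, both chosen after their values were seen. Over all loci tested, the diabetic libraries stood above all normal ones at 3.94%.

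Loci past the end of Tuft1, chosen after their values were seen, split the normal libraries. Tuft1 encodes tuftelin, a secreted protein first known from enamel, and shares its row with Cgn, the tight junction protein cingulin. The 5 strandless loci in the 12 kb downstream of that row (chr2:195851091-195861140) summed to 7.75, 74.4 and 67.1 CPM in normal 1, 2 and 3 and to 8.08, 11.8 and 11.9 in diabetic 1, 2 and 3. MSTRG.25342, 509 bases past the row, held 389, 3409 and 3358 counts in normal and 443, 468 and 477 in diabetic libraries. Normal 1 was thus as low as the diabetic libraries at these loci. With all libraries none passed in limma (adjusted p = 0.953), and MSTRG.25335 passed in DESeq2 (adjusted p = 0.00340). Without normal 1 the loci MSTRG.25335, MSTRG.25336 and MSTRG.25342 passed, the adjusted p being 0.0282, 0.0282 and 0.0358 (limma). As the loci were chosen with their values known, the p-values without normal 1 are not independent support. The Tuft1 row held 30571, 37511 and 39730 counts in normal and 27270, 30193 and 26547 in diabetic 1, 2 and 3.

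Of the strandless loci near miRNA genes, 1 beside Mir146a passed in DESeq2. miR-146a is induced by NF-kappa B and dampens Toll-like receptor signalling. MSTRG.7489 (chr10:28967144-28971990, 4847 bases) begins 4.57 kb upstream of the Mir146a row and held 31, 59 and 110 counts in normal 1, 2 and 3 and 358, 774 and 197 in diabetic 1, 2 and 3. All diabetic libraries stood above all normal ones, at 1.18 ± 0.928 against 0.150 ± 0.0872 FPKM (SD, n = 3 each). The locus thus reached the level of 0.5 FPKM only through the diabetic libraries. The 7.36-fold difference in pooled CPM passed in DESeq2 (adjusted p = 0.000154), and did not pass in limma (log2 fold change 0.89, SE 0.36, adjusted p = 0.953) or edgeR (adjusted p = 0.991). The Mir146a row itself held 0 counts in 4 libraries and 1 and 2 in diabetic 1 and 2. Mature miRNAs were not analysed here.

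At most of the other 21 loci beside known miRNAs with at least 100 counts the groups overlapped. They did not at MSTRG.28312, upstream of Mir181a2 (82, 94 and 88 counts in normal and 122, 99 and 175 in diabetic libraries by number, adjusted p = 0.953, limma), and at MSTRG.39137, where the diabetic libraries were lower (adjusted p = 0.953, limma). The groups did not overlap at 9.66% of all loci tested, so the loci near miRNAs do not stand out in this. MSTRG.10001, 1.34 kb downstream of Mirlet7c1 (let-7 family, regulators of differentiation), held 1857, 1600 and 1694 counts in normal and 1827, 1012 and 1039 in diabetic 1, 2 and 3. MSTRG.8721, 664 bases downstream of Mir21, a miRNA high in injured and inflamed tissue, held 1696, 1360 and 1024 against 1777, 642 and 570. MSTRG.36738 starts 11 bases past Mir34a, a p53 target, and held 257, 87 and 384 against 196, 708 and 553. The groups overlapped at each of these. MSTRG.58 lies within the row of Mir221 and Mir222 and held 784 to 1896 and 717 to 1276 counts, and MSTRG.31595 downstream of Mir96, a miRNA of sensory cells, 225 to 315 and 127 to 332. Of the 55 loci near a Mir symbol 26 had a positive log2 fold change, 3 an unadjusted p under 0.05 (limma; 5.45%, beside 4.8% of all loci), and 1 passed in DESeq2 (1.82%, beside 0.233%).

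Neighbouring strandless loci moved together. Across pairs of neighbours less than 1 kb apart, the log2 fold changes correlated with a Spearman rho of 0.39 (n = 1807 pairs), and 63.7% of pairs had the same sign. The rho was 0.29 at 1 to 10 kb (n = 6822), 0.17 at 10 to 100 kb (n = 5676) and 0.04 beyond 100 kb (n = 5114). The deviations of single libraries from their group mean also correlated, with Pearson's r of 0.27 under 1 kb and 0.02 beyond 100 kb. These are descriptions across loci of the same 6 libraries, which are not independent.

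**Figure D5:**
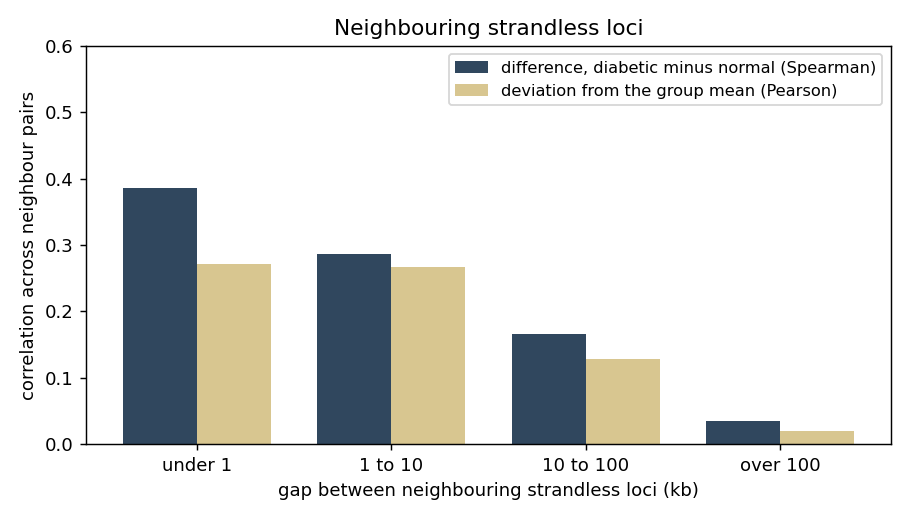
Correlation across pairs of neighbouring strandless loci (y axis) by the gap between them in kb (x axis), for the difference between diabetic and normal libraries on the log2 scale and for the deviation of single libraries from their group mean. Both fall with distance, from 0.39 and 0.27 under 1 kb to 0.04 and 0.02 beyond 100 kb.

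Loci inside genes also went partly with their hosts. Over the 6949 strandless loci whose host row was tested, the log2 fold changes of locus and host gave a Spearman rho of 0.26, and over the 395 tested hosts with 5 or more loci the median of the loci and the host gave 0.43. In Rims2 46 of 48 loci were positive (median 0.47), with the host at 0.42 (SE 0.18) and its groups apart. In Chrm3 49 of 53 were positive (median 0.43), with the host at 0.41 (SE 0.24) and its groups overlapping. Those 53 loci summed to 48.6, 46.6 and 64.9 CPM in normal 1, 2 and 3 and to 109, 55.7 and 120 CPM in diabetic 1, 2 and 3. Diabetic 2 thus stood below normal 3. In Nlgn1 7 of 66 were positive (median -0.26), with the host at -0.29 (SE 0.29). Those 66 loci summed to 59.2, 78.5 and 162 CPM in normal 1, 2 and 3 and to 78.0, 42.8 and 76.3 CPM in diabetic 1, 2 and 3, so that normal 3 stood apart. Without normal 3, 33 of the 66 were positive (median -0.0039), and without diabetic 2, 21. In St6galnac3 17 of 59 were positive (median -0.12), with the host at 0.13 (SE 0.20), and 26 were positive without diabetic 2 and 10 without diabetic 3. None of these 4 hosts passed (limma). Loci within a host are not replicates of it.

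At the edge of the level, MSTRG.31133, MSTRG.17802 and MSTRG.24634 stood just inside at means of 0.5003, 0.5014 and 0.5017 FPKM, and MSTRG.11523, MSTRG.26864 and MSTRG.23884 just outside at 0.4999, 0.4999 and 0.4997 FPKM.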

How the data were processed

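Total RNA of 3 normal and 3 diabetic libraries was analysed. Per the labels, the authors used cutadapt, FastQC and Bowtie2 with build rn6; for versions, assembler and counting program: not given in the sources used here. The authors deposited raw counts per locus and FPKM (scaled to locus length and library size); a placeholder FPKM stands where a count is 0 (86380 values) and was set to 0. Columns with locus annotation were used as given.

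The deposited FPKM were put through log2(FPKM + 1), which understates fold changes of low loci, and quantile-normalized over the 42551 loci at a mean of at least 0.5 FPKM. limma 3.58.1 (R 4.3.3, eBayes with trend) was the main test; passing meant a fold over 1.2 and p under 0.05 after Benjamini-Hochberg adjustment. edgeR 4.0.16 and DESeq2 1.42.0 were run on the counts as alternatives. Shares and deviations were tested by exact permutation (scipy 1.17.1). The floor that 0 counts allow is 3 counts, and floors cover counting error only. Named loci were those passing, the 10 smallest p, the 10 highest FPKM, the 5 largest shares, the 3 longest and shortest, up to 6 at 0 in 1 group, and 3 on each side of the level; others are said to be chosen after their values were seen. Members and lists were chosen with earlier results of these data known. The scripts were tested on simulated data.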

Additional observations from a re-analysis of the deposited data

How the results depend on the processing

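The number of strandless loci passing was 1 with limma, and also with a pseudocount of 0.1, without quantile normalization, at a mean of at least 1 FPKM, and with edgeR under either scaling. It was 0 without the filter on low values (1096 at an unadjusted p under 0.05, limma; 5.64% beside 4.55% of all loci), 3 with eBayes without trend and 33 with DESeq2. Leaving out 1 library gave 0 to 3, with 3 without normal 1 and 0 without diabetic 1, 2 or 3 (1843, 890 and 985 at an unadjusted p under 0.05, limma, which is 9.48, 4.58 and 5.07% of them beside 9.34, 3.68 and 4.39% of all loci). With the replicate number as a block 0 passed (1050 at an unadjusted p under 0.05, limma; 5.401% beside 4.78% of all loci); same-numbered libraries correlated at -0.0092, 0.025 and 0.032, so the numbers do not pair the libraries. The median log2 fold change was -0.033 with edgeR on library totals and -0.018 to 0.0064 with 1 library left out. The share of loci inside protein-coding rows was 35.8% against rows of at least 0.5 FPKM, 40.9% for members of at least 1 FPKM and 41.3% against every type that includes protein coding, the last added after seeing the data. The difference in deviation, strandless minus stranded, turned negative in each class of mean count: -0.038 under 30, -0.018 at 30 to 100, -0.022 at 100 to 300, -0.021 at 300 to 1000 and -0.016 at 1000 or more, and was -0.014 on the log2 CPM scale and 0.20 with a pseudocount of 0.1 (0.49 against 0.29, higher in 6 of 6 libraries), against 0.077 as reported. Against stranded loci without splicing, chosen after seeing the data, it was 0.083 over all loci and -0.078, -0.014, -0.023, -0.021 and -0.013 in the same classes. The difference in share stayed negative under every alternative tried, from -0.202 to -0.0079 with 1 library left out. The causes were not tested. The median locus held 56.3 counts; of 50 loci simulated at 2-fold, 3 were found by DESeq2, 1 by edgeR and 0 by limma, and whether depth sets this was not tested.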

Other observations

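Strandless loci often stood in runs. With a gap of at most 10 kb, 62.9% of them fell into 3590 runs of 2 or more, and 123 runs held 10 or more. The longest run by number was on chromosome 19 (chr19:47301327-47470305) with 41 loci over 169 kb, most of it within the row of AABR07043897, 31 of them with a positive log2 fold change. A run on chromosome X (chrX:112663436-112766193), picked after its values were seen, held 27 loci, all 27 positive, from 0.07 to 0.68 with a median of 0.49. By length of sequence, taken up to the last listed locus, strandless loci were densest on chromosome 19, at 9.75 per Mb, and on chromosome 12, at 9.43 per Mb, and sparsest on chromosome Y, at 4.61 per Mb. These values are descriptions with no test.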
